A study of Drosophila melanogaster with 3 samples.

Results

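The genes described here encode subunits of the 4 respiratory complexes and of the ATP synthase in Drosophila melanogaster. The rule takes gene names and no measured values, though it was written with earlier results of these data known: protein-coding genes on the X, chromosome 4 and arms 2L, 2R, 3L and 3R whose Release 6 symbol starts with ND- (complex I), SdhA to SdhD (complex II), UQCR- (complex III), COX and a digit (complex IV) or ATPsyn (complex V, the ATP synthase). The rule gave 87 of 13945 protein-coding genes, of which 40 belong to complex I, 7 to complex II, 9 to complex III, 16 to complex IV and 15 to complex V. Chromatin immunoprecipitation and sequencing (ChIP-seq) was used to map the transcription factor acj6, a class IV POU-homeodomain protein known from olfactory neurons. The 3 samples are biological replicates of a single group: whole white prepupae, the stage that forms the puparium, with males and females pooled, from a transgenic line that stably carries acj6 fused to GFP at its C-terminus. The precipitation used an antibody against GFP, on chromatin sonicated to 200 to 800 bp. All animals carried the fusion, and the samples hold no second genotype, stage or treatment. No source used here names the promoter that drives the fusion.

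Complex I takes electrons from NADH and complex II from succinate, complex III passes them on to cytochrome c, and complex IV hands them to oxygen. Complexes I, III and IV pump protons across the inner mitochondrial membrane, and the ATP synthase uses the gradient to make ATP. Most subunits are encoded in the nucleus and expressed in nearly all cells, and Drosophila also carries near copies of many of these genes that are known mainly from the male germ line.

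The authors deposited 1 list of peaks past the threshold of the irreproducible discovery rate (IDR), a procedure that keeps peaks repeated between replicates, with 8248 peaks. A pooled list and 1 list for each replicate hold 30000 regions each, background included, and all were made against a control file that the replicates share. No read counts are given, so the depth is unknown, and a peak's signal was used only to rank peaks inside its own list, with rank 1 the strongest. A gene is called bound where a summit, the highest point of a peak, lies within 1 kb of any of its transcription start sites (TSSs), and replicates were read over their 8248 strongest regions. In whole animals, binding in a few cells and weaker binding in many cannot be told apart. The acj6 gene itself holds 2 IDR summits, the stronger at rank 4410.

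The sequences under 8 summits are shown first, because each of these summits lies in the space between the start of a respiratory gene and the start of a gene that runs the opposite way, the arrangement in which most of the bound genes were found. Each run covers 50 bases on each side of the summit, read 5′ to 3′ on the strand of the respiratory gene from the RefSeq Release 6 (dm6) genome, and capitals mark letters that match a searched motif. The windows are chrX:6679324-6679424 (minus strand) for ND-ASHI, chrX:8252398-8252498 (minus) for ND-75, chr2L:6062811-6062911 (minus) for ND-51, chr3L:12138626-12138726 (minus) for ND-SGDH, chrX:7893846-7893946 (minus) for ND-MNLL, chr3L:17425325-17425425 (plus) for COX7B, chr3R:15837188-15837288 (minus) for ND-23 and chr3R:11210096-11210196 (minus) for SdhC. None of these windows overlaps an annotated exon. In capitals are TATAAA in ND-ASHI, TTTATATAAA in ND-SGDH, TTACATAA in ND-MNLL, TTTATA in ND-23 and TATCGATA in SdhC.
ND-ASHI: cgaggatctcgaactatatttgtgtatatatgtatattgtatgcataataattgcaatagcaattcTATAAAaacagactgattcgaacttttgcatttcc
ND-75: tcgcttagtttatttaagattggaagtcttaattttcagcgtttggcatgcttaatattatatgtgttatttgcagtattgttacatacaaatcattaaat
ND-51: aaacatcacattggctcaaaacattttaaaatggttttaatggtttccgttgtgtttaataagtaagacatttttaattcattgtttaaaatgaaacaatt
ND-SGDH: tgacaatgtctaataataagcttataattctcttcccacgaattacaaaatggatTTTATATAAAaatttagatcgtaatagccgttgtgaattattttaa
ND-MNLL: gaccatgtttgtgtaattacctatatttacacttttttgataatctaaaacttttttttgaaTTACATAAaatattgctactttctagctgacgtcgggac
COX7B: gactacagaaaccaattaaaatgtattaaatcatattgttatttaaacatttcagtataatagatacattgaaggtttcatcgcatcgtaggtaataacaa
ND-23: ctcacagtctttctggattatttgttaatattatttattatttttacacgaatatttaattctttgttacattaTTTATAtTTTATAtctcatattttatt
SdhC: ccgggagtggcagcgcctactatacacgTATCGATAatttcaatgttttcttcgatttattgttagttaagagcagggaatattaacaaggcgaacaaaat

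In the IDR list 18 of the 87 genes were bound, or 20.7%, against 3399 of 13945 protein-coding genes (24.4%). As a group, near copies included, the respiratory genes were thus bound at a share close to that of all genes. By replicate, a summit was found at 23 genes (26.4%) in replicate 1, 19 (21.8%) in replicate 2 and 21 (24.1%) in replicate 3, against 26.5%, 24.4% and 26% of all genes in the same replicates. Over the replicates the share averaged 24.1% ± 2.30 for the respiratory genes and 25.6% ± 1.10 for all genes (SD, n = 3 each), and within replicates 1, 2 and 3 the respiratory share differed from that of all genes by -0.07, -2.56 and -1.86 percentage points. For the 87 genes the difference was thus of 1 sign, with a mean of -1.50 ± 1.28 points (SD, n = 3), and it was not tested. With the near copies (24 genes, defined below) left out, 17 of 63 genes were bound in the IDR list (27.0%). The shares of these 63 in replicates 1, 2 and 3 were 33.3%, 28.6% and 31.7%, each above that of all genes. In the pooled list with all its weak regions, 32 respiratory genes (36.8%) had a summit, against 43.8% of all genes. When each summit counted only for the nearest protein-coding TSS, 12 respiratory genes (13.8%) kept one, against 18.1% of all genes.

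Most respiratory genes were called alike in all 3 replicates, as were most of all genes. Of the 87, 17 had a summit within 1 kb in all 3 replicates, and all 17 were also bound in the IDR list. A further 59 had none in any replicate. The remaining bound gene, ND-49, had a summit in replicates 1 and 3 and no region over its summit in replicate 2. The other 10 genes had a summit in 1 replicate and none in the IDR list. Of all 13945 protein-coding genes, 2842 had a summit in all 3 replicates, and 2797 of these were also bound in the IDR list. No summit in any replicate was found at 9605. Both shares were close to those of the 87, so this recurrence was not particular to the respiratory genes.

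By complex, the bound genes were 10 of 40 in complex I (25%), 1 of 7 in complex II, 1 of 9 in complex III, 4 of 16 in complex IV (25%) and 2 of 15 in complex V (13.3%). Complexes I and IV thus lay at about the 24.4% of all genes. With near copies left out, they had 10 of 34 (29.4%) and 3 of 8 (37.5%). The pooled list added 5 genes in complex I, 1 in complex II, 3 in complex III, 2 in complex IV and 3 in complex V, all with weaker regions. No summit was seen in either list at 25, 5, 5, 10 and 10 genes of complexes I to V. Of all 13945 protein-coding genes, 2705 had a summit in the pooled list only and 7841 in neither list. Among the genes taken by the symbol rule, the strongest binding was found at complex I. Of these, 6 bound genes had a peak among the 2062 strongest of the IDR list, and all 6 encode complex I subunits. At ND-MWFE, ND-42 and ND-75 another gene's start was nearer to the summit. The rule leaves out subunits with other symbols, and blw, the alpha subunit of the ATP synthase, had rank 913. That rank is ahead of ND-42, ND-75, ND-51 and ND-SGDH, so strong peaks at subunit genes were not confined to complex I. Over all complexes, 33.3% of the bound respiratory genes had a peak among the 2062 strongest, against 39.3% of all bound genes. The median rank of the strongest peak was 2756 for the respiratory genes and 2836 for all bound genes. The ranks of bound respiratory genes as a whole were thus close to those of other bound genes.

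**Figure D1:**
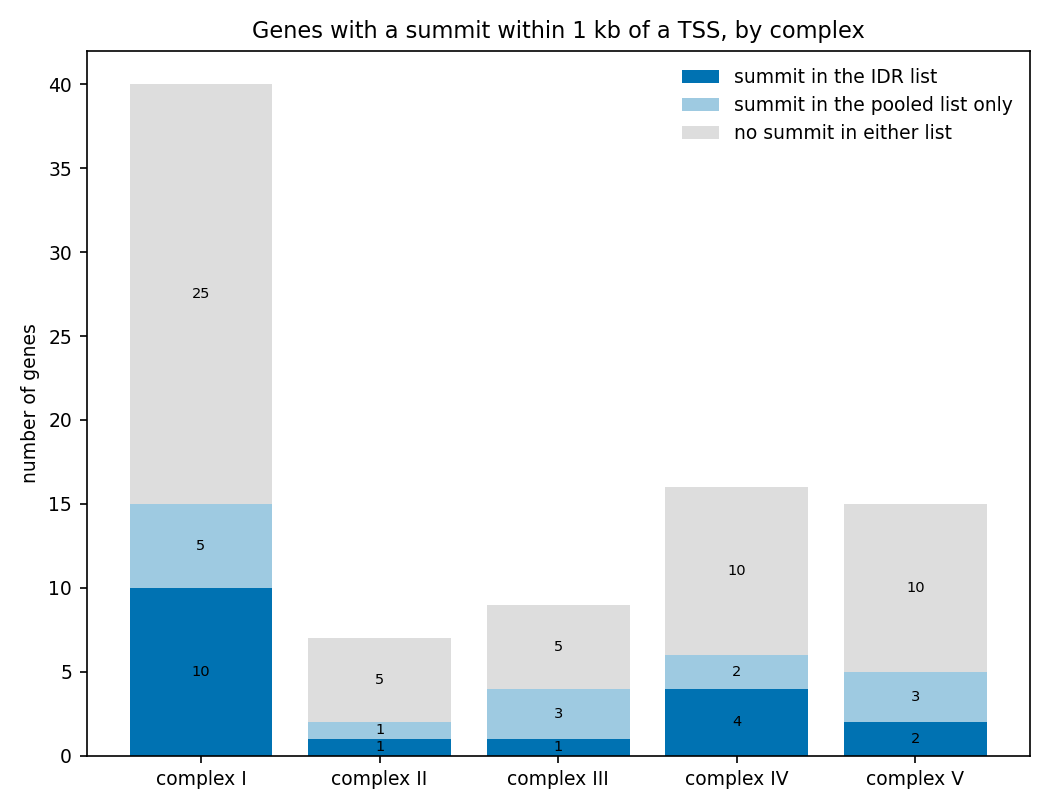
Number of genes (vertical axis) of each complex with a summit within 1 kb of a TSS in the IDR list (dark blue), in the pooled list only (light blue) or in neither (grey). Complex I holds 40 of the 87 genes and 10 of the 18 bound ones. In each complex most genes have no summit in either list, as do 7841 of all 13945 protein-coding genes.

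Within complex I, the strongest peak was at ND-ASHI, a small membrane-arm subunit (chrX, gene at 6677262-6679118 on the minus strand). Its summit at chrX:6679374 had rank 223 and signal 950.5 in the IDR list, and ranks 235, 227 and 236 in replicates 1, 2 and 3. It lay 256 bp upstream of the start of ND-ASHI and 266 bp upstream of another start, that of Fum1, which encodes the fumarase of the tricarboxylic acid cycle, and in an annotated intron of Fum1. The 3 replicates placed this peak almost at the same rank. A second, weak peak at ND-ASHI (rank 7231) sat 16 bp inside another of its starts, with ranks 6581, 6594 and 10897, the last outside the 8248 strongest regions of replicate 3.

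ND-MWFE, another small accessory subunit, had its summit at chr2R:13158497 with rank 813 in the IDR list and ranks 755, 855 and 865 in the replicates. The summit lay 169 bp upstream of ND-MWFE but only 52 bp upstream of TppII, a tripeptidyl peptidase gene. ND-42, an accessory subunit related to nucleoside kinases, had rank 1225 and ranks 1671, 1503 and 879 in the replicates, 230 bp upstream of its start. This summit (chr3R:22027479) coincides with the start of Cchl, 1 bp inside it, the gene of the lyase that attaches haem to cytochrome c. At both genes the other start is therefore the nearer.

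The core subunits of complex I, those shared with the bacterial enzyme, carry the flavin and the iron-sulfur clusters that lead electrons to ubiquinone. ND-75, the largest iron-sulfur subunit, had rank 1260 (1679, 1110 and 1239 in the replicates) with a summit at chrX:8252448, 761 bp upstream of its start and 222 bp upstream of CG1632. ND-51, which binds NADH and the flavin, had rank 1849 (1822, 1824 and 2554) with a summit at chr2L:6062861, 104 bp upstream. ND-24, its iron-sulfur partner, had rank 2319 (2336, 1708 and 3119) with a summit at chrX:17632190, 101 bp downstream of its start in an intron. In the IDR list the peaks of these 3 genes ranked ahead of those of the other bound core genes. ND-23, an iron-sulfur subunit near the quinone site, had rank 5376 (3845, 7539 and 6168), 121 bp upstream at chr3R:15837238. ND-49, which lines the quinone site, had rank 6544 (5642 in replicate 1 and 7559 in replicate 3), at chr4:571037 in its own intron, 247 bp upstream of an inner start.

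Of 7 nuclear-encoded core subunits, 5 were bound, and ND-20 and ND-30 were not. Among the 27 other complex I subunits that are not near copies, 5 were bound (18.5%). In the replicates the core share averaged 66.7% ± 8.25 and that of the other subunits 21.0% ± 2.14, against 25.6% ± 1.10 for all genes (SD, n = 3 each). This grouping was made after the bound genes were known and rests on 7 genes, so it is given as a count. All core genes but ND-20 had a divergent neighbour (defined below), and not all of the other subunits did. The part of this in the contrast was not tested.

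The last 2 bound complex I genes encode accessory membrane subunits, and each had a pair of peaks. ND-SGDH had a summit at chr3L:12138676 with rank 1965 (1760, 1677 and 2547 in the replicates), 92 bp upstream, and another at chr3L:12139388 with rank 2528 (2368, 2944 and 2033), 804 bp upstream in an intron of its neighbour RhoGAP68F. ND-MNLL had a summit at chrX:7892683 with rank 2940 (3440, 2825 and 2571), 878 bp downstream of an inner start and beyond the end of the gene, and another at chrX:7893896 with rank 4033 (4477, 3107 and 6211), 98 bp upstream. All 4 peaks were among the strongest regions of each replicate. ND-MNLL shares its start with CG45089, so its peaks cannot be assigned to one of the pair.

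SdhC, a membrane anchor of succinate dehydrogenase, was the bound gene of complex II. Its summit at chr3R:11210146 had rank 6210 and ranks 4999, 5381 and 11066 in the replicates, 297 bp upstream of SdhC and 101 bp upstream of Tctp. In replicate 3 that region fell outside the 8248 strongest, and another summit (rank 8047), 75 bp upstream of the start, counted there. SdhC was thus a weak case, and the catalytic subunit genes SdhA and SdhB were not bound.

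In complex III the bound gene was UQCR-14, a small subunit of the cytochrome bc1 complex. Its summit at chrX:16285384 had rank 6791 (8000, 7458 and 6060), in an untranslated exon of eas, 904 bp upstream of UQCR-14. Replicate 2 had a stronger region as well (rank 5918), 23 bp upstream of the start. The genes of the core proteins, UQCR-C1 and UQCR-C2, had no IDR summit within 1 kb.

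In complex IV, COX5A and COX5B encode nuclear subunits that sit on the mitochondrially encoded core. COX5A had rank 3792 (4621, 4057 and 3516) with a summit at chr3R:11819534, 65 bp upstream of an inner start and in its own intron. COX5B had rank 4072 (4799, 4632 and 4132), with a summit at chr2L:6557546, 254 bp upstream of COX5B and 44 bp upstream of IFT52, a gene of intraflagellar transport. COX7B, a small membrane subunit, had rank 3737 (4110, 3023 and 3949) and a summit at chr3L:17425375, 102 bp upstream and 158 bp upstream of Sec3, an exocyst gene. All 3 lay in the middle of the list in every replicate. COX7AL2, a near copy of COX7A, had the best rank of complex IV, 2572 (2945, 2017 and 3609), at chr2L:2197388, 524 bp downstream of its start, and a weak second peak at rank 7529.

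In the ATP synthase, ATPsynE encodes a small membrane subunit known in yeast from dimers of the enzyme, and ATPsynCF6 encodes coupling factor 6 of the peripheral stalk. ATPsynE had a summit at chr3R:14327882 with rank 2280 (2624, 2694 and 1686), 814 bp downstream of an inner start and past the end of the gene, where spn-B starts 169 bp away. A second summit at chr3R:14326970, 23 bp inside an ATPsynE start, had rank 2449 (3479, 1769 and 3177). ATPsynCF6 had rank 5312 (7277, 5432 and 5510), at chr3R:23356234, 170 bp upstream and 44 bp upstream of Sec13, a coat protein gene. ATPsynbeta of the catalytic head and ATPsyngamma and ATPsynC of the rotor were not bound in the IDR list.

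**Figure D2:**
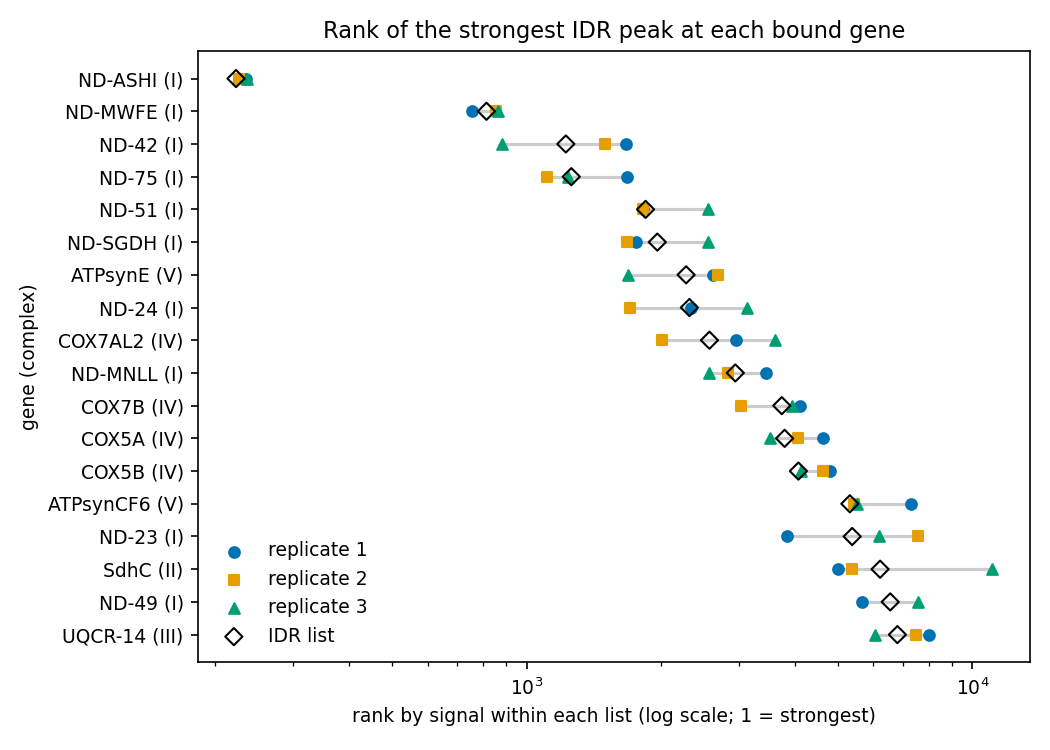
Rank by signal (horizontal axis, log scale, 1 = strongest) of the region over the strongest IDR summit at each of the 18 bound genes, in replicates 1 to 3 (filled symbols) and in the IDR list (open diamonds), with the complex in brackets. ND-ASHI sits at ranks 223 to 236 in every list, while SdhC spreads from 4999 to 11066 and ND-49 has no replicate 2 point.

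The 18 bound genes held 23 IDR peaks, and 5 of the genes had more than 1. Of the 23, 20 were among the strongest regions of all 3 replicates and 3 in 2 of them. Over the 68 replicate regions that span one of these IDR summits, the replicate summit lay a median of 13.5 bp from it, and at most 65 bp. Only regions over the IDR summit were read, which limits this distance. The IDR list was also made from the lists of these replicates. Neither the distance nor the count of peaks found in all 3 replicates is therefore a separate measure of agreement. The closest summit of a bound respiratory gene lay at a median of -112.5 bp from its TSS (negative is upstream, quartiles -242.75 and -71.75), against -151 bp (-272 and -63) for all bound genes. In replicates 1, 2 and 3 the medians were -126, -149 and -97 bp for the respiratory genes, against -144, -153 and -151 bp for all. The closest summit was upstream in 77.8% of bound respiratory genes and in 82.8% of all bound genes. The 100 bp on each side of the 23 summits had a mean GC content of 32.4%, from 19.4% at ND-23 to 53.7% at COX7AL2, against 34.4% at the 3179 IDR summits within 1 kb of a TSS.

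Many of the bound genes face another gene. A divergent neighbour is here a protein-coding gene on the opposite strand whose start lies 0 to 1 kb upstream of the gene's own start. Of the 87 respiratory genes 41 had one (47.1%), against 35.2% of all genes. Among these 41, 16 were bound (39.0%), and among the 46 without such a neighbour 2 were bound (4.35%), namely COX7AL2 and UQCR-14. Over the replicates the shares were 40.7% ± 3.73 with a divergent neighbour and 9.42% ± 1.26 without (SD, n = 3 each). For all genes they were 40.7% ± 1.90 with a neighbour and 17.4% ± 0.688 without, and in the IDR list 37.3% and 17.3%. Respiratory genes with a divergent neighbour were thus bound about as often as other such genes, and those without one less often than other genes without one in each replicate. Leaving out the near copies gave 16 of 37 with a neighbour (43.2%) and 1 of 26 without (3.85%). With each summit counted only for the nearest TSS, 10 of the 41 (24.4%) and 2 of the 46 (4.35%) were bound in the IDR list. Among all genes under that rule, 1063 of 4914 with a divergent neighbour and 1459 of 9031 without one were bound. The SDs are spreads over replicates of the same genes and do not measure how shares vary between sets of genes. The difference was not tested against other genes, and the split was made after the positions were seen.

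A summit between a pair of starts counts for both genes under the 1 kb rule. All 16 neighbours of the bound respiratory genes had an IDR summit within 1 kb as well, and 11 of the 16 pairs had a summit in the space between the starts. Which gene of a pair the protein acts on cannot be told from the summit. For 7 of the 18 bound genes another gene's TSS was nearer to the strongest summit than its own, as at ND-MWFE, ND-42, ND-75, COX5B, ATPsynCF6, SdhC and ATPsynE. The spaces between the starts were short: 221 bp between ND-MWFE and TppII, 232 bp between ND-51 and CG13994, 260 bp between COX7B and Sec3, and up to 983 bp between ND-75 and CG1632.

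**Figure D3:**
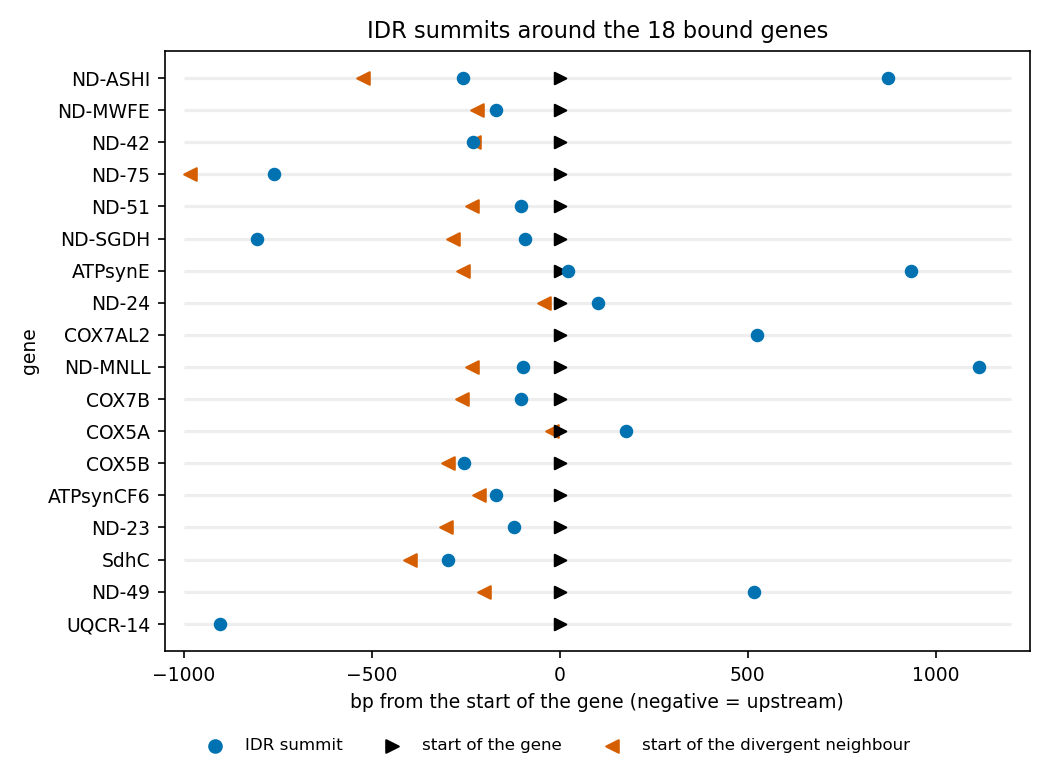
Distance of IDR summits (blue circles) and of the divergent neighbour's start (orange triangles) from the 5′ end of each of the 18 bound genes (black triangles), in bp with negative values upstream. In 11 genes a summit lies between the black and the orange triangle; distances are from the gene's 5′ end, so they differ from those to an inner start, and a second COX7AL2 summit 4148 bp downstream is not drawn.

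The near copies of respiratory genes, taken as symbols that end in L or in L and a digit (24 genes, ND-MNLL excepted), were rarely bound. In the IDR list 1 of the 24 had a summit (4.17%), against 17 of the 63 other respiratory genes (27.0%). In replicates 1, 2 and 3 the copies had 2, 1 and 1 bound genes, a mean of 5.56% ± 2.41, against 21, 18 and 20 of the others, a mean of 31.2% ± 2.42 (SD, n = 3 each). In each replicate the share of the copies was the lower one, and no test of the difference was made. In the pooled list 21 of the 24 copies had no region. Copies also had a divergent neighbour less often, 4 of 24 (16.7%) against 37 of 63 (58.7%), and the part of this in their binding was not tested.

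For 20 copies the gene they are named after is among the 87. In 8 pairs that gene was bound and the copy was not: ND-51 with ND-51L1 and ND-51L2, ND-24 with ND-24L, ND-49 with ND-49L, SdhC with SdhCL, UQCR-14 with UQCR-14L, COX5B with COX5BL, and ATPsynCF6 with ATPsynCF6L. None of these 8 copies had a summit in the strongest regions of any replicate. COX7AL2 was the pair in the other direction, bound in all 3 replicates while COX7A was bound in none. How reads from near-identical copies were placed is given in no source used here.

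**Figure D4:**
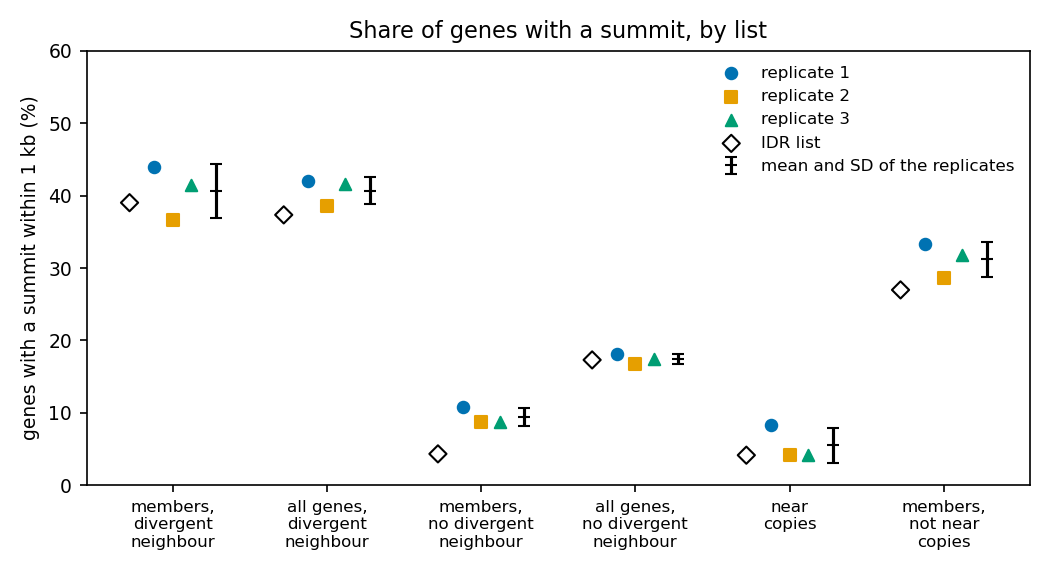
Share of genes (vertical axis, percent) with a summit within 1 kb in the IDR list (open diamonds) and in the 8248 strongest regions of replicates 1 to 3 (filled symbols), with the mean and SD of the replicates (bars, n = 3). Respiratory genes with a divergent neighbour sit at 36.6% to 43.9% in the replicates, and near copies at 4.17% to 8.33%.

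A gene outside the IDR list is not shown to lack binding. The strongest pooled region at an unbound gene was at ATPsynbeta, the catalytic subunit of the ATP synthase, 2 bp upstream of its start. Its pooled rank of 8264 is just behind the 8248 that match the length of the IDR list, and no replicate had it among its strongest regions. In complex I the strongest was at ND-B22, an accessory subunit, with rank 8761, 40 bp downstream of its start. In complexes II and III the strongest were SdhD at rank 9732 (15 bp downstream) and UQCR-6.4L at rank 9680 (968 bp downstream). In complex IV it was COX7C, at rank 15384 and 428 bp upstream.

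Genes with a summit in 1 replicate show how far the replicates can part. COX8 had a region at rank 2759 in replicate 1, 40 bp upstream of its start, and none among the strongest in replicates 2 and 3. ATPsyngamma, the rotor shaft, had rank 4561 in replicate 3 (29 bp upstream) and none in the others. SdhA, the flavoprotein of succinate dehydrogenase, had rank 2065 in replicate 2, 985 bp upstream. Its nearest IDR summit lay 1025 bp away, so the distance limit of 1 kb set its call. UQCR-Q, with 1088 bp, was the next outside the limit, while UQCR-14 with 904 bp and ND-75 with 761 bp were the last inside it.

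Other genes of oxidative metabolism were read from 5 lists. Of 63 listed symbols 57 were found as separate genes outside the 87, and 18 of the 57 were bound (31.6%), against 24.4% of all genes, a share against which the lists below, of 8 to 20 genes each, can be read. Among subunits with other symbols, 4 of 8 were bound: blw, the alpha subunit of the ATP synthase (rank 913, with 971, 707 and 1194 in the replicates), levy (3169) and cype (6273) of complex IV, and Cyt-c1L (3810), a near copy of cytochrome c1. The alpha subunit was thus bound in all replicates and the beta subunit in none. This contrast rests on the cut at the 8248 strongest regions, as ATPsynbeta had a region within 1 kb in all 3 full replicate lists. Of 8 carriers and transporters, the cytochrome c genes Cyt-c-d and Cyt-c-p were bound, with ranks 199 (212, 199 and 194) and 308 (294, 335 and 303), and the ADP/ATP carriers, porins and phosphate carriers were not. The summit at Cyt-c-d lies 392 bp downstream of its start, with the start of CG31808 nearer (158 bp), and that at Cyt-c-p lies 927 bp downstream, near the distance limit. These summits ranked, for Cyt-c-d, ahead of all those at the 87 genes and, for Cyt-c-p, behind that at ND-ASHI only.

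Among 10 assembly factors found, 3 were bound. CIA30, a complex I assembly factor, had the best rank of all 5 lists, 77 (98, 67 and 69), 110 bp upstream of its start, with the start of CG7601 equally near. Cox17, a copper chaperone of complex IV, had rank 1205 (1650, 1811 and 906), and Sirup, an assembly factor of complex II, had rank 5457 at the very limit of 1000 bp. In the pyruvate dehydrogenase complex and the tricarboxylic acid cycle 8 of 20 genes were bound (40%), Idh3g (rank 245) and Fum1 (223, the peak shared with ND-ASHI) the strongest, mAcon1 (1515) and Pdhb (2282) next, and Idh3b, Scsalpha1, Ogdh and kdn between 4185 and 7525. Of 11 regulators of mitochondrial genes, mtSSB, the single-strand binding protein of mitochondrial DNA, was bound (2036), and ewg, srl, Ets97D and TFAM were not.

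The promoters of the 87 genes, 250 bases before to 50 after the gene start, were searched for 11 motifs on both strands. Core promoter motif 1 (GGTCACACT), a word common at fly housekeeping promoters, was in 15 of 87 (17.2%), against 6.05% of all promoters. It was in 4 of the 18 bound genes and 11 of the 69 others. ATTAATNA, a core of the AT-rich sites that class IV POU factors are known to recognise, was in 16.1%, against 11.7%. Of the bound genes 3 of 18 held it, and of the others 11 of 69, so it was not limited to the bound ones. The octamer ATGCAAAT was in 2.30%, against 3.47%, and the DNA replication-related element (TATCGATA) in 10.3%, against 9.36%.

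The nuclear respiratory gene element, searched as TTACGTAA, TTACATAA, TTATGTAA or TTATATAA, was in 5 of 87 promoters (5.75%), against 5.18% of all. Of these 5, ND-42, ND-49, ND-MNLL and ND-SGDH were bound and ND-30 was not. All 5 had a divergent neighbour. The share of bound genes among all promoters with the element is not given here, and a link of the element to binding was not tested. The words TTATATAA and TATAAA (the TATA box, in 55.2% against 45.8% of promoters) overlap, as the run of ND-SGDH shown above has it. The remaining motifs were CAGCTG in 24.1% against 17.7%, CACGTG in 4.60% against 4.20%, CATCNCTA in 8.05% against 6.42%, GAGAGAG in 1.15% against 5.87%, and GCGCATGC in 0 of 87 against 1.05%. In the 100 bp on each side of the 23 summits, the nuclear respiratory gene element was found at 4 (17.4%), TATCGATA at 3 (13.0%) and ATTAATNA at 3 (13.0%), against 5.16%, 3.96% and 11.4% of IDR summits within 1 kb of a TSS. TATAAA was at 11 of the 23 (47.8%, against 39.8%) and CAGCTG at 3 (13.0%, against 9.63%). The other 6 motifs were at none of the 23: GGTCACACT (1.42% of those IDR summits), ATGCAAAT (2.80%), CATCNCTA (4.97%), GAGAGAG (4.34%), CACGTG (2.04%) and GCGCATGC (0.346%). These are matches of letters in 23 windows, and no test was made of these counts.

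Among the 4 weakest of the 23 peaks, a pair lies in introns of its genes and clear of annotated exons, and their windows are shown because they are the weakest that overlap no exon. They belong to ND-49 (chr4:570987-571087, minus strand) and to the second peak of COX7AL2 (chr2L:2193714-2193814, minus strand), and of the searched motifs they hold TTTATA, in ND-49. The GC content of the 4 windows was 28.7% at ND-49, 24.8% at UQCR-14, 27.7% at the second ND-ASHI peak and 48.5% at COX7AL2, so 3 of the 4 are AT-rich.
ND-49: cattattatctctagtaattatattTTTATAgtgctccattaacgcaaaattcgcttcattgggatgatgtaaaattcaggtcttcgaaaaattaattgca
COX7AL2: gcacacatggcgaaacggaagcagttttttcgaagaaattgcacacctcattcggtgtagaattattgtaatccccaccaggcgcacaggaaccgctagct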

How the data were processed

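The authors deposited peak lists in narrowPeak layout for Release 6 (dm6) coordinates. Signal values (column 7), as deposited, come from the authors' peak caller and are not scaled between lists, so they were used only as ranks. Per the text records deposited with each sample, a replicate list was made from that replicate's alignment and 1 control file common to all, and the IDR list from the other 4 lists. No source used here gives the aligner, the caller, their versions or the IDR threshold. Lists in dm3 coordinates were not used here. No counts are given, so depth is unknown, and the only spread given is that over 3 replicates of the same genes. Nothing in the labels says whether replicates came from separate collections beyond the words biological replicate.

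Summits were set against TSSs of protein-coding genes in Ensembl release 115, and the sequence came from RefSeq Release 6. All peaks lay within the arm lengths. IDR peaks carry ranks of the pooled signal, and the rank of a peak in a replicate is that of the strongest region over the IDR summit. A peak counted as covered when a single region spanned at least 50% of it. No test was run: there is 1 group, and counts are given beside all genes. The rule for named genes took every bound gene, the strongest unbound gene of each complex, the genes on each side of the distance limit, near copies of bound genes, bound genes of the other lists and neighbouring starts. The other unbound genes named (ND-20, ND-30, SdhB, UQCR-C1, UQCR-C2, COX8, ATPsyngamma, ATPsynC and those of other lists) fall outside this rule and were chosen after their values were seen. The members and lists were chosen with earlier results of these data known. Alternatives covered distance, list length, replicate cover, each replicate left out and the TSS rule. Python 3.11.15 with numpy 2.4.6, pandas 2.3.3 and matplotlib 3.10.9 was used, and the counting was tested on simulated peak lists.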

Additional observations from a re-analysis of the deposited data

How the results depend on the processing

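Settings were 500 bp, the 4124 strongest IDR peaks, cover in all 3 replicates, the nearest TSS only, gene ends only and no near copies. In these, 12 to 18 respiratory genes were bound, and 28 with 2 kb. Leaving out a replicate gave 16 to 17. The share was above that of all genes at 2 kb (32.2% against 30.7%) and without near copies (27.0% against 24.4%). In the other settings it was below. The 8248 strongest pooled regions gave the same counts as the IDR list. Each bound gene had the same rank in both lists, so this setting was no separate check. Complex I stayed between 7 and 13 and complex IV between 3 and 6. The small counts moved: complex II had 2 at 2 kb and 0 among the 4124 strongest, with cover in all 3 replicates and by nearest TSS (0 to 1 without a replicate). Complex III had 0 at 500 bp, 3 at 2 kb and 0 among the 4124 strongest, and complex V had 4 at 2 kb and 1 among the 4124 strongest and by nearest TSS. Bound genes with a divergent neighbour numbered 10 by nearest TSS, and those without one 0 at 500 bp, 9 at 2 kb, 1 among the 4124 strongest and 1 with near copies left out. The replicate mean was 44.4% over all regions, 15.3% over 4124, 20.3% at 500 bp and 33.3% at 2 kb, against 47.7%, 16.3%, 21.8% and 32.0% of all genes, and 23.0% to 25.3% without a replicate. The median distance was -145 bp at 2 kb. With 100 bases in place of the 300-base promoter, core promoter motif 1 was in 5.75% of the 87 genes and 2.22% of all, while TATCGATA was in 3.45% and 6.20%, CACGTG in 0 and 1.04% and CATCNCTA in 0 and 2.62%, so that for these 3 the order turned round. By construction, longer distances and lists add summits. No paired analysis was possible because there is a single group. Depth is unknown, so weak and absent binding cannot be told apart.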

Other observations

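Near copies aside, 3 respiratory genes lie far from any IDR summit, and were picked out after their values were seen. ND-AGGG, a small complex I subunit, is 1036259 bp from the nearest, UQCR-11 of complex III 891764 bp and ND-MLRQ 429112 bp, all at the centromere end of arm 3L. UQCR-11 still had a pooled region at rank 11016, 155 bp upstream of its start, and ND-AGGG had a region within 1 kb in all 3 full replicate lists.

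By arm, bound respiratory genes were 5 of 13 on X (38.5%, against 25.8% of all genes there), 6 of 19 on 3R (31.6%, against 25.3%), 3 of 16 on 2L (18.8%, against 23.4%), 2 of 20 on 3L (10%, against 25.4%), 1 of 17 on 2R (5.88%, against 22.3%) and 1 of 2 on chromosome 4 (50%, against 20%). As a point of comparison, 30 of 73 mitochondrial ribosomal protein genes (41.1%) and 6 of 48 proteasome subunit genes (12.5%) were bound in the IDR list. Over the replicates these shares were 45.7% ± 2.09 and 12.5% ± 4.17 (SD, n = 3 each), with the respiratory genes between them in each replicate, and none of these differences was tested.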
